A study of Mus musculus with 40 samples.

Results

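This report describes 9 genes across the RNA-seq libraries of a study of mouse T cells: the S100 genes S100a4, S100a6, S100a10 and S100a11, the annexin gene Anxa2, the galectin genes Lgals1 and Lgals3, the vimentin gene Vim and the LIM-protein gene Crip1. They were picked by name, as genes of an activated, effector-like T cell state, with earlier results of these data known; the rule itself names genes and sets no threshold on a measured value. All 9 were found among the 21950 genes of the expression table, and all 9 passed the filter on low values in each fit (11495 genes tested over 15 libraries, 11105 over 12 and 11725 over all 24). The study asked how the calcium entry that follows T cell receptor stimulation differs between conventional T cells (Tconvs), thymus-derived regulatory T cells (tTregs) and regulatory T cells induced in culture (iTregs), and what becomes of iTregs that are stimulated again. Each library is a bulk sample.

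The 24 libraries fell into 8 groups of 3. Resting and activated Tconvs and resting and activated tTregs, which the labels call nTreg, came from spleens of Foxp3-GFP reporter mice on the C57BL/6 background at an age of 2 to 4 months, and the tTregs were sorted as CD4+ cells that carried the reporter. The 4 iTreg groups came from naive CD4+ T cells of 6-week-old mice; the methods allow a Foxp3-GFP or a Foxp3-RFP reporter for iTregs and do not say which these libraries used. These cells were induced for 4 days with plate-bound anti-CD3 (0.5 µg/ml), anti-CD28 (1 µg/ml), TGF-β (2 ng/ml) and IL-2 (200 U/ml), sorted for the Foxp3 reporter and rested for 1 day in IL-2. Resting iTregs were left without restimulation, and the other iTregs were restimulated with anti-CD3 and anti-CD28 alone, with an ORAI inhibitor (ORAIinh in the labels, taken to be CM-4620 from the study's methods, which blocks the calcium channel of store-operated calcium entry) or with cyclosporin A (CsA, which blocks calcineurin and with it the activation of the transcription factor NFAT). How long the cells of these libraries were activated or restimulated was not stated, nor were the animals behind each replicate, so p-values measure the spread between these libraries. Every iTreg had spent days in culture with anti-CD3 and cytokines and the Tconvs and tTregs came from older mice, so a difference between iTregs and the other cells cannot be told apart from one of culture, age or earlier stimulation.

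S100 proteins are small EF-hand proteins, most of which bind calcium and, once bound, dock onto partner proteins. S100A10 is the exception that has lost calcium binding; it forms a complex with annexin A2, a protein that binds membrane phospholipids in the presence of calcium. Galectins bind sugars that contain β-galactoside on cell surface glycoproteins, vimentin forms intermediate filaments, and CRIP1 is a small protein with a LIM zinc-finger domain. Genes of this set are commonly seen at higher levels in activated, memory and effector T cells than in naive ones.

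The 4 S100 genes lie in a cluster of this gene family on mouse chromosome 3, S100a4 at chr3:90603771-90606045, S100a6 at chr3:90612882-90624181, S100a11 at chr3:93520488-93526287 and S100a10 at chr3:93555080-93564643 (GRCm38, GENCODE vM21). Vim lies at chr2:13573927-13582826, Anxa2 at chr9:69453620-69491795, Crip1 at chr12:113146316-113153879, Lgals3 at chr14:47367751-47386160 and Lgals1 at chr15:78926725-78930465, and all 9 genes are on the plus strand. In that annotation 51.7% of the exon bases of S100a4 also belong to Gm42674, a gene on the same strand, so the count of S100a4 is uncertain. Over the 24 libraries Gm42674 held 1 read and S100a4 held 1241. Anxa2 shares 2.63% of its exon bases with an antisense gene, and the exons of the other 7 overlap no other gene.

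Start-site windows of the RefSeq promoter table (GRCm38.p6) were found for 7 of the 9 genes, all except S100a10 and Lgals1. The 250 bases before the start are printed for 4 of them, because their expression moved in different directions below: S100a4 had the largest fall and Anxa2 the largest rise of the 9 genes on Tconv activation, and S100a6 and Crip1 had the largest falls when iTregs were restimulated. Capitals mark the TATA box (searched as TATAAA), the GC box (searched as GGGCGG) and the AP-1 motif (TGA, then any base, then TCA), on both strands. Where capitals run on, 2 matches adjoin. The RefSeq start sites need not be the first base of the GENCODE gene models. The windows of Crip1, Lgals3 and Vim lie inside the gene bounds given above.
S100a4, chr3:90603520-90603769, plus strand: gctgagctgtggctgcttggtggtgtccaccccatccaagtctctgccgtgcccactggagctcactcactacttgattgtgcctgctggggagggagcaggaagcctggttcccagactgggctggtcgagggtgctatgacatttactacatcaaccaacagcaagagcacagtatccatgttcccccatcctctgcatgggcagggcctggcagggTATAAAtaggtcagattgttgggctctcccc
Anxa2, chr9:69453433-69453682, plus strand: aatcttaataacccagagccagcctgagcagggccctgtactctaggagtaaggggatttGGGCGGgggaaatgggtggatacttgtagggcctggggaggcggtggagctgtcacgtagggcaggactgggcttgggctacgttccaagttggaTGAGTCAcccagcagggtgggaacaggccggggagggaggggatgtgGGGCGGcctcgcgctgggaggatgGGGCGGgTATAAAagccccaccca
S100a6, chr3:90612644-90612893, plus strand: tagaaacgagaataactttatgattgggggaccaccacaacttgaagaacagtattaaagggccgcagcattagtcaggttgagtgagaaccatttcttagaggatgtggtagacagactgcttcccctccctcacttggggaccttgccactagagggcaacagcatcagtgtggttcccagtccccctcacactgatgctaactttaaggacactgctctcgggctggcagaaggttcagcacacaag
Crip1, chr12:113151762-113152011, plus strand: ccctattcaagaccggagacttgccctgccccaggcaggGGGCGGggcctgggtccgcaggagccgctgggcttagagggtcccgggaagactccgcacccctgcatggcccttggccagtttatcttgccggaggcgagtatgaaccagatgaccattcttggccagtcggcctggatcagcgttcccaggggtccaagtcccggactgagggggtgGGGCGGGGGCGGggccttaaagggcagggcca
The TATA box stood in 12.4% of all 32851 windows of this length, the GC box in 32.7% and the AP-1 motif in 6.75%. The window of S100a4 held 1 TATA box, starting 31 bases before the start site, and no GC box or AP-1 motif. That of Anxa2 held 1 TATA box, 3 GC boxes and 1 AP-1 motif. Crip1 had 3 GC boxes, and in the window of S100a6 none of the 3 motifs was found. Of the windows not printed, Vim had 1 TATA box, Lgals3 had 1 GC box on the minus strand, and S100a11 had 3 GC boxes and 2 AP-1 motifs. GGAAA, the core of an NFAT site, stood in 55.6% of all windows; it had 3 matches in Vim, 1 in Anxa2 and none in the other 5. The E-box CACGTG (6.02% of all windows) had 1 match, in S100a11, and the CArG box (1.47%) had none in these 7 windows.

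The summed share of all normalized counts held by the set was lowest in Tconvs, intermediate in tTregs and highest in iTregs. Values are normalized counts, that is, read counts divided by a size factor for each library, on a scale where 1 read is worth about 1 normalized count. Summed over the 9 genes, they made up 0.0923% ± 0.00210 (SD, n = 3) of all normalized counts in resting Tconvs and 0.121% ± 0.00480 in activated Tconvs. In tTregs the share was 0.267% ± 0.0212 at rest and 0.424% ± 0.0427 after activation. Resting iTregs reached 0.797% ± 0.0326, restimulated iTregs 0.636% ± 0.00850, those restimulated with the ORAI inhibitor 0.713% ± 0.00790 and those with CsA 0.835% ± 0.0133. No library of a Tconv group overlapped one of a tTreg group, and no tTreg library one of an iTreg group. The sum is weighted towards abundant genes, and single genes do not all follow this order. The share also depends on the total of each library. That total was 1.08e+07 to 1.12e+07 normalized counts in activated Tconvs and 8.64e+06 to 8.79e+06 in resting tTregs. Between these 2 groups the rise of the sum was mainly that of Vim, which averaged 1485 in activated Tconvs and 11797 in resting tTregs. The means of S100a4, S100a6, Lgals1 and Crip1 were also higher in resting tTregs than in activated Tconvs. Those of S100a10, S100a11, Lgals3 and Anxa2 were lower. In bulk RNA fewer cells that express a gene and less RNA per cell cannot be told apart.

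**Figure D1:**
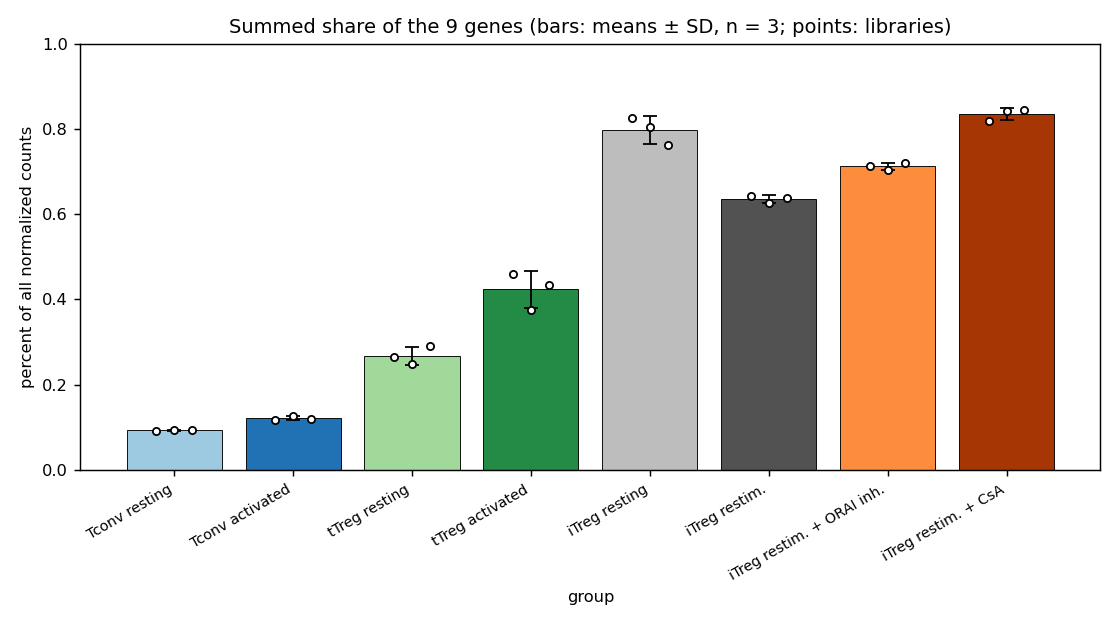
Share of all normalized counts held by the 9 genes together, in percent, for the 8 groups; bars are means, error bars SD over 3 libraries, and points are libraries. The share climbs from 0.0923% in resting Tconvs to 0.797% in resting iTregs, and restimulated iTregs lie lower, at 0.636%.

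The genes differed widely in level. Per kilobase of merged exon, S100a10 had the highest mean of the 9 genes in both Tconv and both tTreg groups, at 3528 normalized counts per kilobase in resting Tconvs and 6058 in activated tTregs. In the 4 iTreg groups Lgals1 came first, at 21412 per kilobase in resting iTregs, ahead of S100a10 at 8080.2 and Vim at 7120.5. S100a4 was last in 6 of the remaining groups and in activated Tconvs as well, with 31.1 per kilobase there; in resting Tconvs Lgals3 was last, at 84.4. At that level 61.5% of the 11625 expressed genes with a known length lay below Lgals3, while 99.8% lay below Lgals1 in resting iTregs.

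For 5 genes, S100a10, Lgals1, Lgals3, Anxa2 and Vim, each of the 12 iTreg libraries lay above each of the 12 Tconv and tTreg libraries. How many of all genes separate in this way was not counted, so the 5 cannot be set against a share. S100a6 and Crip1 were also highest in iTregs, but restimulated iTregs overlapped activated tTregs. S100a4 and S100a11 did not follow this order. S100a4 was highest in resting Tconvs. S100a11 had close means in activated Tconvs (714.1), iTregs restimulated with CsA (713.8) and activated tTregs (694.9), with overlapping libraries. These 2 genes thus did not follow the order of the other 7. For S100a4, the highest level in resting Tconvs goes against the name of an activated-state gene.

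**Figure D2:**
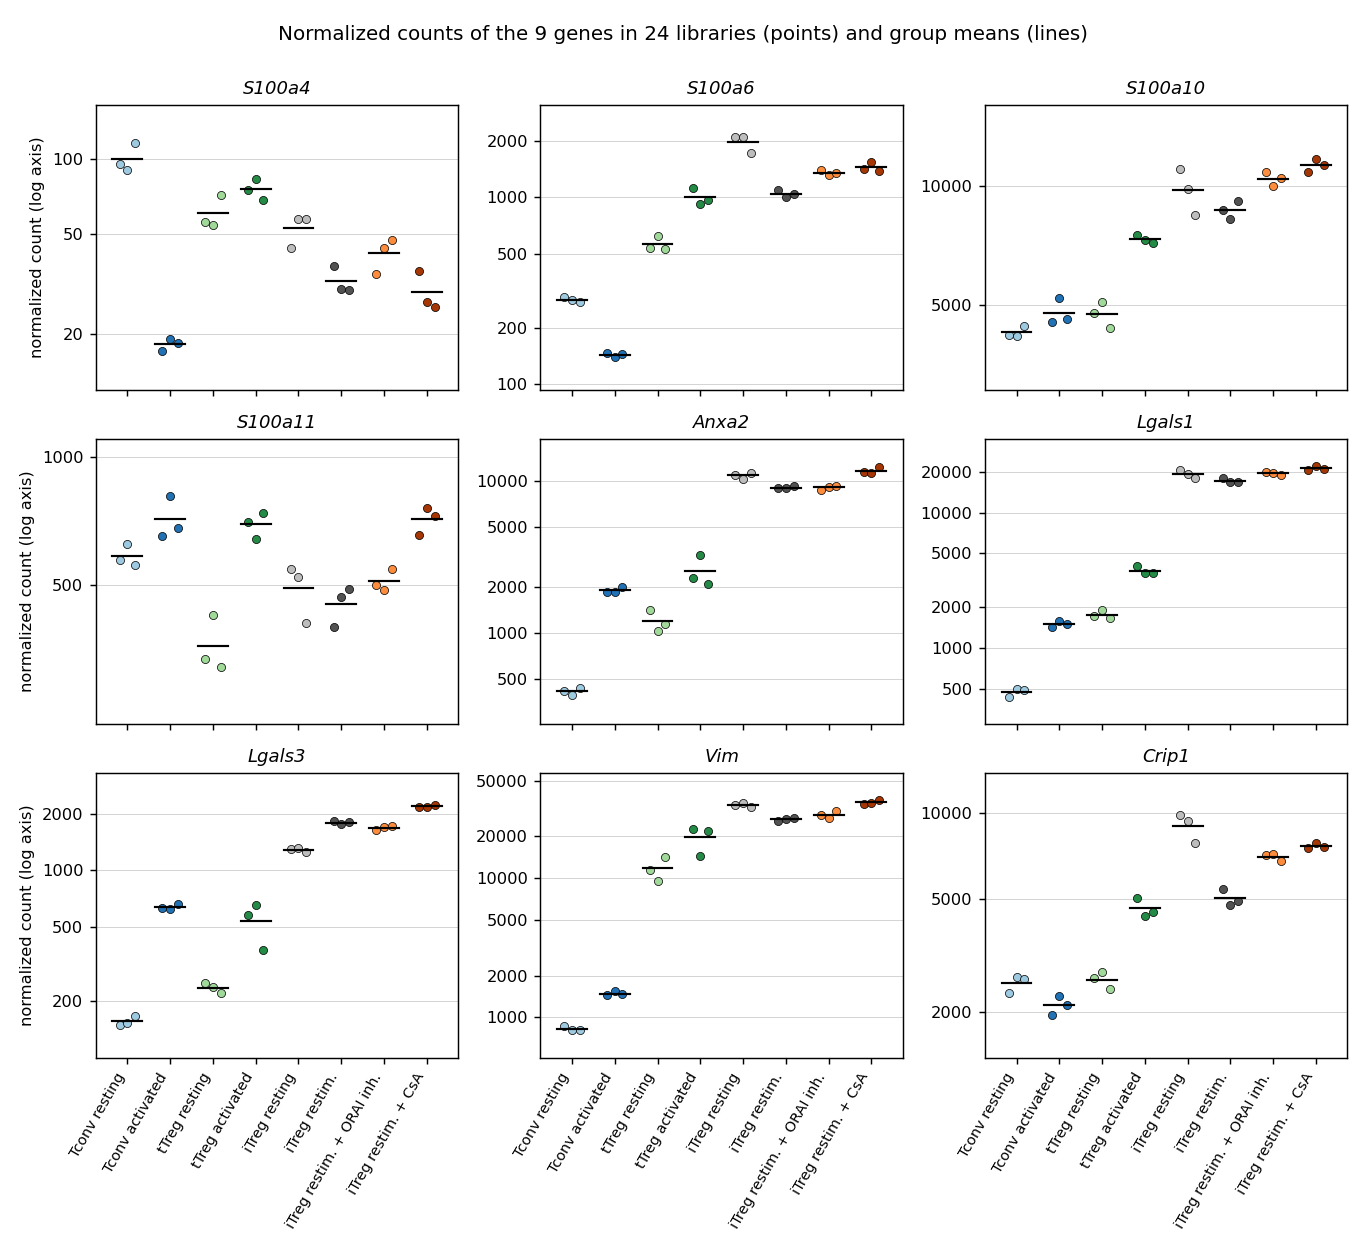
Normalized counts of the 9 genes on log axes, with 1 panel per gene, the 8 groups on the x axis, a point for each of the 24 libraries and a line at each group mean. Lgals1, Lgals3, Anxa2, Vim and S100a10 are highest in the 4 iTreg groups, whereas S100a4 lies between 91.0 and 116 in resting Tconvs and between 17.1 and 19.0 in activated ones.

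The libraries held 5256800 to 15685200 reads on genes, and 5 of the 6 tTreg libraries were the shallowest of all. All 24 carried T cell markers, with a sum over 5 measured genes of 21930 to 34660. Foxp3, the transcription factor that defines regulatory T cells, was at 7537 in resting tTregs, 1280.0 in resting iTregs and 10.4 in resting Tconvs. Of other cell types, the sum of 10 myeloid markers was 15.1 to 119.6 and that of 5 B cell markers 15.99 to 136, with S100a8, S100a9, Ms4a1 and Pax5 at 0 in every library. Myeloid cells carry high levels of several of the 9 genes; the myeloid sum was lowest in resting iTregs (15.1 to 19.0) and highest in the Tconv groups (93.6 to 119.6). Of the 10 myeloid markers only Cd68 and Fcgr3 passed the filter in the fit of 15 libraries. On Tconv activation Cd68 was called higher and Fcgr3 lower, and Lyz2, Cd14 and Cebpa were at 0 in activated Tconvs. The B cell sum was 89.0 to 136 in the tTreg groups, mostly from Cd79b, and 18.0 to 31.9 in the Tconv groups. The sum of 3 NK cell markers was 19.3 to 30.9 in resting Tconvs, 0.898 to 3.54 in activated Tconvs and 0 in every tTreg and iTreg library. The erythroid sum over 5 markers was highest in resting iTregs, at 25.8 to 30.3, and 0.708 to 14.1 in the other groups. The sum of 5 stromal and endothelial markers went from 3081 to 3129 in resting Tconvs to 596 to 831 in resting iTregs and 359.7 to 403 in restimulated iTregs; nearly all of it was Pecam1, which T cells also express, and Col3a1 and Pdgfra were at 0 throughout. The part of these markers in the results was not tested. The sum of 8 proliferation genes was 297 to 332 in resting and 2325 to 2386 in activated Tconvs, 479.5 to 572 in resting and 1576 to 1873 in activated tTregs, and 31820 to 40490 in iTregs. Like the share of the 9 genes it was highest in iTregs. Unlike that share, it was higher in activated Tconvs than in either tTreg group, and its range with CsA (32730 to 34140) lay below that in resting iTregs (38520 to 40490). Its part in the results was not tested. If each library were scaled to its own total instead, log2 fold changes would shift by 0.26 upward between resting tTregs and resting Tconvs, by 0.21 upward between the activated cells and by 0.32 downward between resting iTregs and resting tTregs; calls that depend on this are named below.

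The first comparison asked how the genes respond when Tconvs are activated. Anxa2, Lgals3, Lgals1 and Vim rose, S100a4 and S100a6 fell, and S100a10, S100a11 and Crip1 did not pass the test. Thus 4 of 9 were higher and 2 of 9 lower, where 24.5% and 25.7% of all genes tested were. A gene counted as changed when limma gave it an adjusted p below 0.05 (Benjamini-Hochberg, over all genes of the fit) and its log2 fold change lay outside ± 0.5. The median log2 fold change was 0.28 over the 9 genes and -0.04 over all genes.

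Among the S100 genes, S100a4, which encodes a protein that binds non-muscle myosin, was at 95.6, 91.0 and 116 normalized counts in resting Tconvs and 17.1, 19.0 and 18.4 in activated Tconvs. The 3 activated libraries were close to each other and far below the resting ones (log2 fold change -2.40 ± 0.17 SE, adjusted p = 1.77e-08). S100a6 read 294, 282 and 275 at rest and 147, 139 and 145 after activation, again without overlap (log2 fold change -0.98 ± 0.10 SE, adjusted p = 8.59e-07). S100a10 went from 4275 ± 138 to 4789.9 ± 370.1 (mean ± SD, n = 3), a difference that did not pass the test (log2 fold change 0.16 ± 0.10 SE, adjusted p = 0.156). S100a11 went from 584 ± 34.9 to 714 ± 84.2 (log2 fold change 0.28 ± 0.13 SE, adjusted p = 0.0731).

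Anxa2 was at 416, 390.2 and 435 in resting and 1859, 1875 and 2023 in activated Tconvs. Its groups were far apart and its replicates close (log2 fold change 2.21 ± 0.14 SE, adjusted p = 4.31e-09). Lgals3, a galectin found both in the cytoplasm and outside the cell, read 149, 154 and 168 at rest and 628, 621 and 659 after activation (log2 fold change 2.01 ± 0.15 SE, adjusted p = 2.24e-08). Lgals1, a galectin that T cells secrete, read 436, 502 and 489 and 1419, 1584 and 1504 (log2 fold change 1.66 ± 0.086 SE, adjusted p = 4.68e-10). Both galectins thus rose in every activated library. Vim rose less, from 871, 817 and 807 to 1441, 1538 and 1477 (log2 fold change 0.84 ± 0.15 SE, adjusted p = 0.000248). Crip1 was at 2531 ± 176 at rest and 2119 ± 165 after activation, and its adjusted p of 0.0336 came with a log2 fold change of -0.26, inside the limit of 0.5.

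In tTregs, activation moved the set in 1 direction. Of the 9 genes 8 rose and none fell, where 11.9% and 10% of all genes did; the median log2 fold change was 0.83 over the 9 genes and 0.00 over all. S100a4 was the exception, at 56.2, 54.5 and 71.8 in resting and 75.4, 83.3 and 69.0 in activated tTregs, with overlapping libraries (log2 fold change 0.32 ± 0.17 SE, adjusted p = 0.165).

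S100a6 read 539, 619 and 532 in resting tTregs and 1119, 924 and 966 in activated tTregs. All 3 activated libraries were above the resting ones (log2 fold change 0.83 ± 0.10 SE, adjusted p = 3.53e-05). S100a11 read 336, 426 and 322 at rest and 703, 642 and 739 after activation (log2 fold change 0.95 ± 0.13 SE, adjusted p = 9.92e-05). S100a10 read 4788, 5101 and 4378 and 7530.4, 7314 and 7180.5 (log2 fold change 0.63 ± 0.10 SE, adjusted p = 0.000202). These 2 neighbours on chromosome 3 thus rose in tTregs, without overlap between the groups.

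Lgals1 read 1719.9, 1906 and 1677 in resting and 4021, 3567 and 3584 in activated tTregs (log2 fold change 1.07 ± 0.086 SE, adjusted p = 9.84e-07). Crip1 read 2637, 2763 and 2411 and 5027, 4364 and 4490.3 (log2 fold change 0.83 ± 0.10 SE, adjusted p = 2.95e-05). Neither gene had overlapping groups. The activated tTreg libraries were less alike for 3 genes: Lgals3 read 580.4, 653 and 378 against 249, 240.1 and 222 at rest (log2 fold change 1.14 ± 0.15 SE, adjusted p = 6.17e-05). Anxa2 read 2295, 3258 and 2118 against 1417, 1029 and 1146 (log2 fold change 1.08 ± 0.14 SE, adjusted p = 5.72e-05). Vim read 22773, 14427 and 22016 against 11457, 9636 and 14299 (log2 fold change 0.73 ± 0.15 SE, adjusted p = 0.0023). In activated tTregs, replicate 2 had the lowest Vim and the highest Anxa2 and Lgals3, yet the groups still did not overlap.

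Whether the 2 responses differed was tested as an interaction. The response was higher in tTregs than in Tconvs for 4 of the 9 genes and lower for 3, where 17.7% and 17% of all genes tested were. The differences were large for S100a4 (difference 2.73 ± 0.24 SE on the log2 scale, adjusted p = 8.25e-07), S100a6 (difference 1.81 ± 0.14 SE on the log2 scale, adjusted p = 2.11e-07) and Crip1 (difference 1.09 ± 0.14 SE on the log2 scale, adjusted p = 2.43e-05), all with negative fold changes in Tconvs and positive ones in tTregs. S100a11 responded more in tTregs as well (difference 0.67 ± 0.19 SE on the log2 scale, adjusted p = 0.0105). Anxa2 (difference -1.13 ± 0.20 SE on the log2 scale, adjusted p = 0.000393), Lgals3 (difference -0.87 ± 0.21 SE on the log2 scale, adjusted p = 0.00415) and Lgals1 (difference -0.58 ± 0.12 SE on the log2 scale, adjusted p = 0.00151) rose in both cell types but more in Tconvs. For Vim the difference was -0.10 ± 0.22 (adjusted p = 0.74) and for S100a10 it was 0.47 ± 0.13 (adjusted p = 0.0127), inside the limit of 0.5; without replicate 2 of activated Tconvs it was 0.53 and without replicate 2 of resting tTregs 0.52, both past it.

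**Figure D3:**
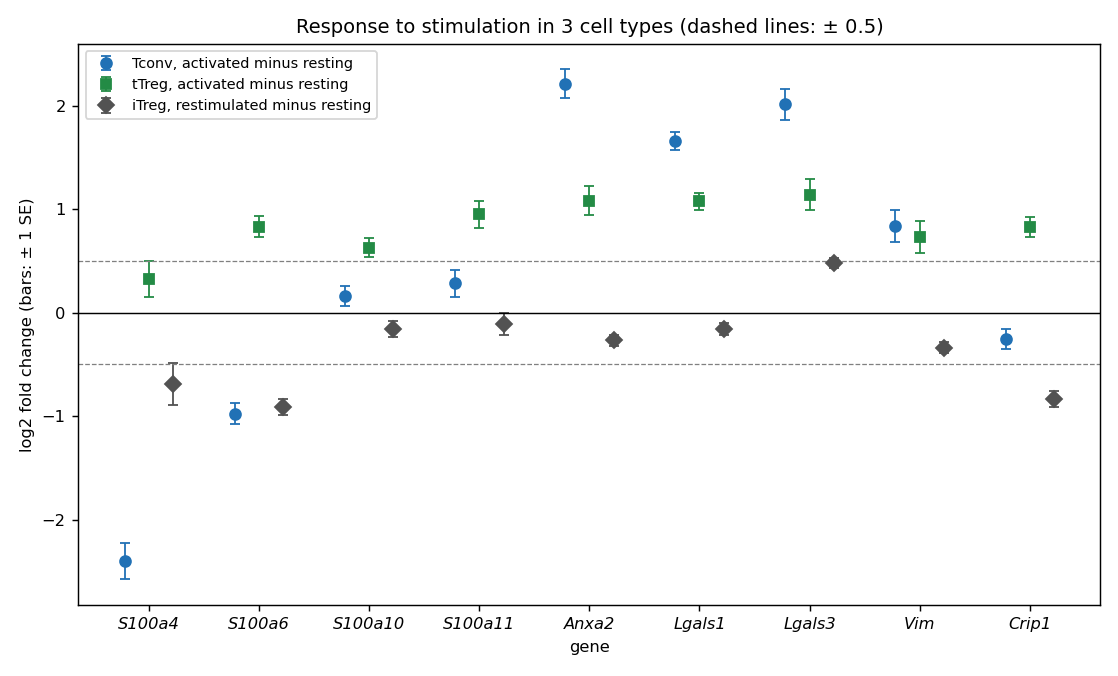
Log2 fold changes of the 9 genes (x axis) on activation of Tconvs, activation of tTregs and restimulation of iTregs, with bars of 1 SE and dashed lines at ± 0.5. The tTreg points lie between 0.32 and 1.14, the Tconv points spread from -2.40 to 2.21, and of the iTreg points Lgals3 alone is above 0.

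Resting tTregs and resting Tconvs were compared next. Vim, Lgals1, Anxa2, S100a6 and Lgals3 were higher in tTregs, S100a4 and S100a11 were lower, and S100a10 and Crip1 did not pass the test. This made 5 of 9 higher and 2 of 9 lower, against 20.5% and 18.2% of all genes. Vim had the largest difference of the 9, 14.0-fold (log2 fold change 3.81 ± 0.15 SE, adjusted p = 4.07e-11), with 11797 ± 2350.0 in resting tTregs and 832 ± 34.6 in resting Tconvs (mean ± SD, n = 3). Lgals1 was 3.71-fold higher (log2 fold change 1.89 ± 0.086 SE, adjusted p = 1.47e-10) and Anxa2 2.87-fold (log2 fold change 1.52 ± 0.14 SE, adjusted p = 3.67e-07). S100a6 differed by 0.98 ± 0.10 and Lgals3 by 0.59 ± 0.15 on the log2 scale. S100a4 and S100a11 fell below the limit of 0.5 when libraries were scaled to their totals, at -0.47 and -0.44 in place of -0.72 and -0.70.

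In activated cells, 6 of 9 genes were higher in tTregs than in Tconvs and none was lower, against 25.6% and 22.6% of all genes. Vim was 13.02-fold higher (log2 fold change 3.70 ± 0.15 SE, adjusted p = 7.03e-11), S100a6 6.92-fold (log2 fold change 2.79 ± 0.10 SE, adjusted p = 1.83e-11) and S100a4 4.01-fold (log2 fold change 2.00 ± 0.17 SE, adjusted p = 1.82e-07). S100a4 therefore stood lower in tTregs at rest and higher after activation, and its order between the cell types turned on the state of the cells. Lgals1 differed by 1.31 ± 0.086, Crip1 by 1.13 ± 0.10 and S100a10 by 0.62 ± 0.10 on the log2 scale. Lgals3 and S100a11 overlapped between the activated groups. Anxa2 differed by 0.39 ± 0.14, which passed the limit of 0.5 when libraries were scaled to their totals, at 0.60, or without replicate 3 of activated tTregs, at 0.51.

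Resting iTregs carried most of these genes at levels far above the other resting cells. Compared with resting Tconvs, 7 of 9 were higher and 1 was lower, against 32.8% and 30.8% of all genes, and the median log2 fold change was 2.79 over the 9 genes and 0.02 over all. Lgals1 read 20801, 19263 and 17941 in resting iTregs, 40.6 times its mean in resting Tconvs (log2 fold change 5.34 ± 0.086 SE, adjusted p = 7.44e-16). Vim read 33939.5, 34919.7 and 32458, 40.6-fold higher (log2 fold change 5.34 ± 0.15 SE, adjusted p = 3.07e-13). Anxa2 read 11095, 10410.4 and 11386, 26.4-fold higher (log2 fold change 4.73 ± 0.14 SE, adjusted p = 4.07e-13). The replicates of these 3 genes lay within a narrow band and far from any Tconv library.

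Lgals3 read 1307, 1316 and 1251 in resting iTregs and was 8.19-fold higher than in resting Tconvs (log2 fold change 3.03 ± 0.15 SE, adjusted p = 1e-10). S100a6 read 2105, 2109 and 1731 and was 6.94-fold higher (log2 fold change 2.79 ± 0.10 SE, adjusted p = 3.37e-12). Crip1 read 9798, 9334 and 7831 (log2 fold change 1.82 ± 0.10 SE, adjusted p = 2.97e-10). In S100a6 and Crip1, and in S100a10 with 11098, 9830.3 and 8451, replicate 3 was the lowest of the resting iTregs. S100a10 was 2.28-fold higher (log2 fold change 1.19 ± 0.10 SE, adjusted p = 2.65e-08). S100a4 went the other way, 1.88-fold lower (log2 fold change -0.91 ± 0.17 SE, adjusted p = 0.000224), and S100a11 did not pass (log2 fold change -0.26 ± 0.13 SE, adjusted p = 0.0892).

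Against activated Tconvs, resting iTregs had 8 of 9 genes higher and 1, S100a11, lower (log2 fold change -0.54 ± 0.13 SE, adjusted p = 0.0027), with 22.9% and 18.7% of all genes. The call of S100a11 was lost without replicate 2 of activated Tconvs, at -0.45, and without replicate 3 of resting iTregs, at -0.41. The 8 rises ran from 1.02 ± 0.15 for Lgals3 and 1.03 ± 0.10 for S100a10 to 4.51 ± 0.15 for Vim on the log2 scale.

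Against resting tTregs, 7 of 9 genes were higher in resting iTregs and none was lower, where 32.3% and 31.1% of all genes were. Lgals1 was 10.9-fold higher (log2 fold change 3.45 ± 0.086 SE, adjusted p = 1.55e-13) and Anxa2 9.23-fold (log2 fold change 3.21 ± 0.14 SE, adjusted p = 3.75e-11). Lgals3 was 5.43-fold, S100a6 3.51-fold and Crip1 3.44-fold higher. Vim, which already separated tTregs from Tconvs, differed by 1.54 ± 0.15, and S100a10 by 1.04 ± 0.10 on the log2 scale. S100a4 overlapped between the groups; its log2 fold change of -0.19 became -0.50, a call, when libraries were scaled to their totals. S100a11 differed by 0.44 ± 0.13 and passed the limit without replicate 2 of resting tTregs, at 0.57, or without replicate 3 of resting iTregs, at 0.57.

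Restimulation of iTregs lowered 3 of the 9 genes and raised none, against 6.13% and 6.7% of all genes tested in the 12 iTreg libraries. The median log2 fold change was -0.27 over the 9 genes and -0.01 over all. S100a6 read 1102, 1001 and 1046 after restimulation against 2105, 2109 and 1731 at rest (log2 fold change -0.91 ± 0.076 SE, adjusted p = 5.34e-07). Crip1 read 5397, 4740.3 and 4927 against 9798, 9334 and 7831 (log2 fold change -0.84 ± 0.074 SE, adjusted p = 9.64e-07). In both genes every restimulated library lay below every resting one. S100a4 read 37.3, 30.3 and 29.97 against 44.3, 57.5 and 57.7 (log2 fold change -0.69 ± 0.20 SE, adjusted p = 0.0176), a call that was lost, with adjusted p = 0.0577 to 0.0633, without replicate 2 or 3 of either group.

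The other 6 genes did not pass both limits. Vim read 26025, 26846 and 27218 against 33939.5, 34919.7 and 32458 and Anxa2 read 9039.5, 9004 and 9267 against 11095, 10410.4 and 11386; neither pair of groups overlapped, but their log2 fold changes were -0.34 ± 0.054 (adjusted p = 0.000266) and -0.27 ± 0.052 (adjusted p = 0.00138). Lgals3 was the one gene of the 9 with a positive difference. It read 1824, 1767 and 1806 against 1307, 1316 and 1251, without overlap (log2 fold change 0.48 ± 0.049 SE, adjusted p = 4.24e-06), just inside the limit of 0.5. S100a10, S100a11 and Lgals1 overlapped between resting and restimulated iTregs, with log2 fold changes of -0.16 ± 0.080, -0.11 ± 0.11 and -0.16 ± 0.059.

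The response of iTregs was set against that of tTregs as an interaction over all 24 libraries. It was lower in iTregs for 9 of 9 genes and higher for none, where 12.3% and 9.01% of all genes tested were; the median difference was -1.07 over the 9 genes and -0.04 over all. The largest differences of the 9 were in S100a6 (difference -1.74 ± 0.12 SE on the log2 scale, adjusted p = 1.82e-09) and Crip1 (difference -1.66 ± 0.12 SE on the log2 scale, adjusted p = 2.84e-09), which rose in activated tTregs and fell in restimulated iTregs. Anxa2 differed by -1.35 ± 0.16, Lgals1 by -1.24 ± 0.10, Vim by -1.07 ± 0.18, S100a11 by -1.06 ± 0.17, S100a4 by -1.01 ± 0.25 and S100a10 by -0.79 ± 0.12. The smallest was Lgals3 (difference -0.66 ± 0.17 SE on the log2 scale, adjusted p = 0.0062), and its call was lost when only the 4 groups compared were fitted (adjusted p = 0.059). The iTregs started from higher levels of 7 of these genes, had been stimulated before, and had high levels of proliferation genes, which were lower in the same test in 8 of 8 cases; the part of these in the difference was not tested. This comparison and the previous ones use the same resting iTreg and tTreg libraries.

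After stimulation, restimulated iTregs still had higher levels than activated Tconvs in 8 of 9 genes, and S100a11 was lower (log2 fold change -0.65 ± 0.12 SE, adjusted p = 7.8e-05), against 24.4% higher and 20% lower of all genes. Vim was 18.0-fold, Lgals1 11.5-fold and S100a6 7.26-fold higher. S100a4 differed by 0.80 ± 0.18, and under quantile normalization by 0.21 (adjusted p = 0.313), where the call was lost. Against activated tTregs, 3 of 9 were higher, namely Lgals1 (log2 fold change 2.21 ± 0.072 SE, adjusted p = 1.63e-16), Anxa2 (log2 fold change 1.86 ± 0.12 SE, adjusted p = 6.51e-12) and Lgals3 (log2 fold change 1.78 ± 0.12 SE, adjusted p = 2.27e-11). S100a4 (log2 fold change -1.20 ± 0.18 SE, adjusted p = 3.62e-06) and S100a11 (log2 fold change -0.62 ± 0.12 SE, adjusted p = 9.87e-05) were lower, and 30.5% and 28.8% of all genes were higher and lower. S100a6 and Crip1 overlapped between these 2 groups, whereas both were more than 3-fold higher in iTregs than in tTregs at rest. Vim differed by 0.46 ± 0.13 and passed the limit without replicate 1 or 3 of activated tTregs, at 0.58 and 0.56.

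The inhibitor groups asked whether blocking calcium entry or calcineurin during restimulation changes these levels; the doses in these libraries were not stated. With the ORAI inhibitor none of the 9 genes passed both limits against restimulated iTregs in limma. Of all genes, 1.5% were higher and 1.79% lower by both limits. By edgeR and DESeq2 on the recovered reads none was called either. In limma 4 of the 9 had an unadjusted p below 0.05, a looser cutoff to which these shares of all genes do not apply. Crip1 (log2 fold change 0.48 ± 0.074 SE, adjusted p = 0.000754) and S100a6 (log2 fold change 0.37 ± 0.076 SE, adjusted p = 0.00666) had adjusted p-values below 0.05 with fold changes inside the limit, and Crip1 passed the limit without replicate 1 of restimulated iTregs, at 0.54, or without replicate 3 of the inhibitor group, at 0.51. Crip1 read 7106, 7158 and 6774 with the inhibitor and S100a6 read 1398, 1326 and 1350.5; for both genes all of these lay above the restimulated libraries and below the resting ones. The share of the restimulation change that was left was 42.1% ± 5.2 for Crip1 and 59.2% ± 4.3 for S100a6 (SD, n = 3, against the same resting and restimulated means). For the 7 other genes log2 fold changes ran from -0.09 for Lgals3 to 0.36 for S100a4, and that of Anxa2 was 0.00 ± 0.052.

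With CsA 2 of 9 genes were higher than in restimulated iTregs and none was lower, where 1.57% and 1.35% of all genes were. S100a11 read 654, 759 and 728 against 399.9, 469.6 and 489.5 (log2 fold change 0.66 ± 0.11 SE, adjusted p = 0.00182). Crip1 read 7537, 7861 and 7559.9 against 5397, 4740.3 and 4927 (log2 fold change 0.61 ± 0.074 SE, adjusted p = 0.000168), with 27.0% ± 4.1 of its restimulation change left. In both genes all CsA libraries were above all restimulated ones. A further 6 genes had adjusted p-values below 0.05 with log2 fold changes inside the limit, between 0.29 for Lgals3 and 0.46 for S100a6, all of them positive. Adjusted p alone is a looser cutoff, to which these shares of all genes do not apply. S100a4 overlapped between the groups (log2 fold change -0.15 ± 0.20 SE, adjusted p = 0.721).

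The 2 inhibitor groups were also compared with each other and with resting iTregs. None of the 9 genes passed both limits between them in limma, and edgeR and DESeq2 called none either. Of all genes, 0.0991% were higher and 0.261% lower with the ORAI inhibitor by both limits. In limma 6 of the 9 had an unadjusted p below 0.05, a looser cutoff to which these shares of all genes do not apply. Lgals3 (log2 fold change -0.38 ± 0.049 SE, adjusted p = 0.000989), Anxa2 (log2 fold change -0.37 ± 0.052 SE, adjusted p = 0.00208) and Vim (log2 fold change -0.31 ± 0.054 SE, adjusted p = 0.0114) had adjusted p-values below 0.05 and were lower with the ORAI inhibitor than with CsA in each library. Against resting iTregs, the ORAI inhibitor group had 1 gene lower and none higher, with 3.13% and 3.97% of all genes. This was S100a6 (log2 fold change -0.54 ± 0.076 SE, adjusted p = 0.000191), a call that was lost without replicate 1 or 2 of resting iTregs, at -0.49 each. The CsA group had 2 higher and 1 lower, with 5.19% and 4.24% of all genes. Lgals3 was higher (log2 fold change 0.77 ± 0.049 SE, adjusted p = 5.78e-08) and read 2180.2, 2188 and 2229, the highest level of this gene in any group. S100a11 was higher (log2 fold change 0.55 ± 0.11 SE, adjusted p = 0.00228), a call lost without replicate 3 of resting iTregs, at 0.42, or replicate 2 of the CsA group, just under the limit at 0.4995. S100a4 was lower (log2 fold change -0.84 ± 0.20 SE, adjusted p = 0.00712), and S100a6, at -0.45, passed the limit without replicate 3 of resting iTregs, at -0.54. Vim, with 35299 ± 1077 under CsA and 33772 ± 1239 at rest (mean ± SD, n = 3), overlapped between these groups, as did Lgals1 and S100a10.

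**Figure D4:**
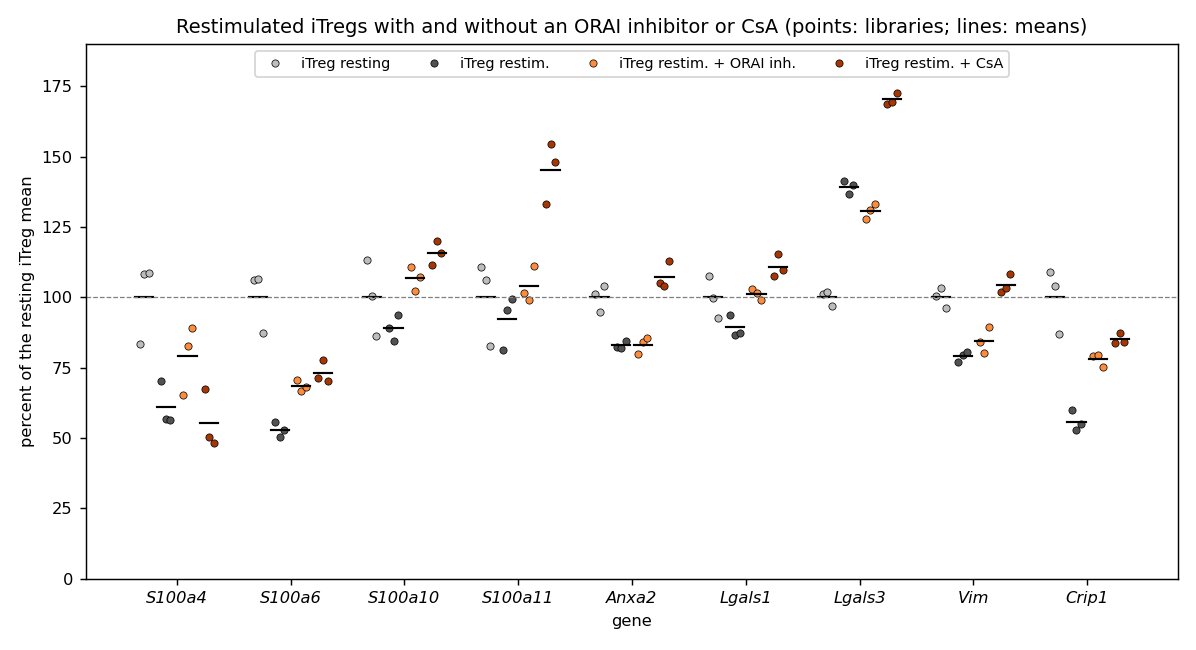
Levels of the 9 genes (x axis) in the 4 iTreg groups as a percentage of the mean in resting iTregs; points are libraries and lines are group means. The group means of S100a6 and Crip1 drop on restimulation and lie in between with either inhibitor, and Lgals3 is highest with CsA. The comparisons share the resting and restimulated libraries.

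Related gene families were examined with the same test. In the comparison of resting iTregs with resting Tconvs, the counts of this and the next paragraphs stand beside 32.8% of all genes higher and 30.8% lower. Of 12 other S100 genes 3 could be tested, and all 3 were higher in resting iTregs than in resting Tconvs and in resting tTregs. S100a1 averaged 672 in resting iTregs and 7.71 in resting Tconvs (log2 fold change 6.33 ± 0.22 SE, adjusted p = 2.42e-12), and S100a13 averaged 2781 and 698 (log2 fold change 1.98 ± 0.12 SE, adjusted p = 1e-09). Both fell when iTregs were restimulated, S100a1 by 1.05 and S100a13 by 0.66 on the log2 scale, and both rose when tTregs were activated.

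Of 11 other annexins 8 were tested. In resting iTregs 4 were higher than in resting Tconvs and none was lower. Anxa3 was at 0 in every resting Tconv and resting tTreg library and averaged 188 in resting iTregs, and Anxa4 averaged 453 against 46.3 in resting Tconvs (log2 fold change 3.26 ± 0.18 SE, adjusted p = 4.29e-10). On restimulation of iTregs 3 of the 8 rose and 1 fell, against 6.7% and 6.13% of all genes. Anxa3 and Anxa4 rose by 1.05 and 0.79 on the log2 scale, and Anxa9 by 0.82. Anxa1, named with Anxa9 after its values were seen, fell from a mean of 46.0 to 7.92 (log2 fold change -2.41 ± 0.23 SE, adjusted p = 2.2e-06). Of 8 other galectins 5 were tested, with 2 higher and 2 lower in resting iTregs than in resting Tconvs, near the shares of all genes. Lgals8 was among the lower ones (log2 fold change -1.39 ± 0.13 SE, adjusted p = 1.16e-07), and Lgals9, a galectin that binds the receptor TIM-3, rose on Tconv activation (log2 fold change 1.12 ± 0.12 SE, adjusted p = 1.04e-06).

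Among 5 tested genes of intermediate filaments and plectin, all 5 were higher in resting iTregs than in resting Tconvs, among them the B-type nuclear lamins Lmnb1 (3.34) and Lmnb2 (3.03) on the log2 scale. All 3 tested genes of the other CRIP and CSRP LIM proteins were higher as well, among them Csrp1 (log2 fold change 2.61 ± 0.15 SE, adjusted p = 4.35e-10). Of 10 binding partners tested 3 were higher and 4 lower, near the shares of all genes. Ahnak, a scaffold that binds the complex of S100A10 and annexin A2, was higher (log2 fold change 1.74 ± 0.088 SE, adjusted p = 1.4e-10). Against resting tTregs, however, Ahnak was lower in resting iTregs, unlike S100a10 and Anxa2. Cd7, a receptor for galectin-1, was lower than in resting Tconvs (log2 fold change -6.57 ± 0.23 SE, adjusted p = 2.07e-12). Genes of naive T cells were lower in 9 of 9 cases, and 6 of 10 surface genes of activation and memory were higher and 2 lower. Of 13 tested EF-hand calcium sensors 7 were higher and 1, Stim1, was lower (log2 fold change -1.55 ± 0.12 SE, adjusted p = 1.47e-08), and of 15 cytoskeleton genes 7 were higher and 2 lower, beside the 32.8% and 30.8% of all genes.

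Across the 24 libraries the genes fell into a main group and 2 that stood outside. Pearson's r with the mean of the 9 standardized profiles was 0.986 for S100a10, 0.976 for Crip1, 0.949 for Lgals1, 0.925 for S100a6, 0.915 for Anxa2, 0.896 for Vim and 0.857 for Lgals3. It was 0.081 for S100a11 and -0.164 for S100a4. The mean includes the gene itself, which raises these values. Between pairs of genes of the main group r went down to 0.65, for S100a6 and Lgals3. Within groups, after the group means were removed, Lgals1 and Crip1 still varied together (r = 0.93) and S100a10 with Crip1 (0.76), whereas Lgals3 and Vim went apart (-0.53). There S100a11 varied with S100a10 (0.72), Lgals1 (0.54), Crip1 (0.53) and S100a6 (0.48). Its r was 0.05 with Vim, -0.16 with Lgals3, -0.43 with Anxa2 and -0.51 with S100a4. These values describe 24 points that share 8 groups and, within a library, the same depth and size factor.

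The genes outside the set whose profile was most like that mean, over the same 24 libraries and 11716 genes, were Sae1 (r = 0.978), S100a13 (0.978), Bex3 (0.974), Lmf2, Yif1b, Hbegf, Grhpr and Arhgap33. Sae1, a subunit of the enzyme that activates SUMO, averaged 1427 in resting Tconvs and 7081 in resting iTregs. The least alike were Zfp952 (-0.975), Lrif1 (-0.965), Bach2 and Zfp60. Bach2, a repressor that restrains effector genes in T cells, averaged 1134 in resting Tconvs and 506 in resting iTregs. Over the 8 group means r was between 0.957 and 0.987 for the 8 most alike genes, but after group means were removed it was between -0.365 and 0.765, so the likeness of most of them rests on differences between groups. By single genes, the nearest neighbour of Lgals1 after Cep170b was Mki67 (r = 0.988), that of Vim was Cd81 (0.992), that of Anxa2 was Cdkn1a (0.991) and that of S100a4 was Mfge8 (0.951).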

How the data were processed

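The 24 RNA-seq libraries were analysed from 1 deposited table; 16 ATAC-seq and CUT&Tag samples were not analysed here. Per the submitters' notes and the paper's methods, reads were trimmed with cutadapt 1.18, aligned to GRCm38 with STAR 2.5.3 and quantified with RSEM 1.3.0, and the authors deposited counts normalized with DESeq2 1.26 size factors, so the values are a signal relative to library depth and not raw counts. In each library 100% of the values were whole multiples of the smallest one (tolerance 0.01), which returned the reads for count tests.

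Normalized counts were tested as log2(value + 1) with limma 3.58.1 (R 4.3.3, trend), two-sided, after a filter of at least 10 in 3 libraries; fold changes of low genes are therefore understated. The Tconv, tTreg and resting iTreg groups formed a fit of 15 libraries, the iTreg groups one of 12, and comparisons across stimulated cells used all 24. Each fit took 1 spread per gene over all its groups, although the spread was unequal. In activated tTregs the SD was 23.4% of the mean for Vim, 24% for Anxa2 and 26.5% for Lgals3. In activated Tconvs it was 3.29%, 4.71% and 3.23%. For these genes the SE can understate the spread in tTregs. P-values were adjusted by Benjamini-Hochberg over all genes of a fit. edgeR 4.0.16 and DESeq2 1.42.0 on the recovered reads, other scalings, pseudocounts, filters and thresholds, a replicate block and leaving out each library were alternatives. The code was tested on simulated data.

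The 9 genes and all lists were chosen with earlier results of these data known. Listed genes are named where their mean over 24 libraries is at least 100, they passed the test and they are among the 4 largest changes of their list; Stim1 is named as the single lower gene. The 8 most and 4 least alike genes were ranked by Pearson's r. Gene models came from GENCODE vM21, which may differ from the annotation the authors used, and start-site windows from RefSeq (GRCm38.p6). Intervals were not computed, since groups had replicates; 3 reads correspond to 2.12 to 5.45 normalized counts.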

Additional observations from a re-analysis of the deposited data

Results flagged for a closer look

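For 7 genes the response to activation differed between tTregs and Tconvs by the test of the difference itself (limma, Benjamini-Hochberg adjusted over all genes). On the log2 scale, tTreg response minus Tconv response was 2.73 for S100a4 (adjusted p = 8.25e-07), 1.81 for S100a6 (2.11e-07), 1.09 for Crip1 (2.43e-05) and 0.67 for S100a11 (0.0105). It was -1.13 for Anxa2 (adjusted p = 0.000393), -0.87 for Lgals3 (0.00415) and -0.58 for Lgals1 (0.00151).

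For all 9 genes the response to restimulation of iTregs was lower than the response to activation of tTregs by the same kind of test. The difference was -1.74 for S100a6 (adjusted p = 1.82e-09), -1.66 for Crip1 (2.84e-09), -1.35 for Anxa2 (3.44e-06), -1.24 for Lgals1 (2.15e-08) and -1.07 for Vim (0.00017). It was -1.06 for S100a11 (adjusted p = 8.41e-05), -1.01 for S100a4 (0.00485), -0.79 for S100a10 (3.27e-05) and -0.66 for Lgals3 (0.0062). The 2 sets of differences share the tTreg libraries.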

How the results depend on the processing

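The 153 tests of the 9 genes had 3124 alternatives, from refits or from other thresholds on the main fit. Of these, 3039 stayed on the same side of the thresholds, 47 lost a call and 38 gained one. No called value changed sign. Changes of sign in values without a call in either fit were not counted. The fold threshold moved the counts most. Above a log2 fold change of 1, the genes changed were 3 in place of 8 for tTreg activation, 4 in place of 7 for the difference between the tTreg and Tconv responses and 3 in place of 7 between resting tTregs and Tconvs. At that limit 0 were left for iTreg restimulation (3), for CsA against restimulated iTregs (2) and for the ORAI inhibitor (1) and CsA (3) against resting iTregs. By adjusted p alone, 6 changed on restimulation, 2 with the ORAI inhibitor and 8 with CsA against restimulated iTregs, 3 between the inhibitors, and 5 with either inhibitor against resting iTregs. The shares of all genes at these other limits are not given here, so these counts show only how the calls depend on the limit. Leaving out 1 library at a time gave 0 to 1 for the ORAI inhibitor against restimulated iTregs and 0 to 1 against resting iTregs. Under quantile normalization S100a10 lost its call in activated tTregs, at 0.39. The cause of these changes was not tested. Fits with a replicate block gave the same counts in all 17 comparisons, such as 8 for tTreg activation and 3 for iTreg restimulation. After group means were removed, same-numbered libraries had a mean r of -0.01 over 15 libraries, 0.15 over 12 and 0.04 over 24. Over the 12 iTreg libraries, 10 of 18 same-numbered pairs lay above 0.1, and differently numbered pairs averaged -0.075. The main fits took no pairing, and whether same-numbered iTreg libraries share a batch was not tested. S100a4, at 17.1 to 116 normalized counts, is the gene whose precision depth limits most.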
